A study of Mus musculus with 13 samples.

Results

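The earliest response to depletion of Smarcc1 was described here, on days 4 and 5 of differentiation, which are 2 and 3 days after transduction of the hairpins. On each of these days there was 1 library with the nonsilencing control hairpin (Nons), 1 with the hairpin Smarcc1.6 and 1 with the hairpin Smarcc1.7. These 6 of the 13 RNA-seq libraries were chosen by hairpin and day, with no use of their values. All 6 came from female FVB/CAST F1 mouse embryonic stem cells (mESC) that were expanded in 2i and then weaned into DME HiHi media to differentiate. All were transduced with a hairpin virus on day 2 and selected with puromycin from day 3, the Nons cells included. Of the 25965 genes in the table, 13353 had a mean of at least 0 log2 CPM (reads of a gene over all mapped reads of its library) over the 6 libraries, and these were tested. Each comparison was made within a day, so 4 differences from Nons were available for every gene, but only 2 Nons libraries stood behind them. The labels do not say whether the libraries of a group came from separate cultures, so p-values measure the spread between these libraries.

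Smarcc1 encodes a core scaffold subunit of the BAF complex, a SWI/SNF remodeller that uses ATP to move and evict nucleosomes. Embryonic stem cells assemble their own form of the complex, which is known for its part in pluripotency and in the exit from it. Female mESC carry 2 active X chromosomes, and X chromosome inactivation (XCI) starts as they differentiate, when the long non-coding RNA Xist coats the chromosome that is to be silenced.

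The hairpins are shown because each comparison rests on them. Both guides are 22 bases long, and the capitals mark the seed, bases 2 to 8 counted from the 5′ end, which differs between the pair. Both target sites lie on the + strand in coding sequence of Smarcc1 (GENCODE M21, mm10).
Smarcc1.6 guide: tGTAACTGcttcttcatcctgc
Smarcc1.6 target site, exon 13, chr9:110177472-110177493: gcaggatgaagaagcagttaca
Smarcc1.7 guide: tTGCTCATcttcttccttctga
Smarcc1.7 target site, exon 11, chr9:110173911-110173932: tcagaaggaagaagatgagcaa
Each whole site was found in the transcripts of 1 gene of that annotation, Smarcc1.

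Smarcc1 (chr9:110132037-110240178, + strand) was lower in all 4 knockdown libraries than in either Nons library. On day 4 its level was 9.10 log2 CPM in Nons, 7.42 with Smarcc1.6 and 7.96 with Smarcc1.7. On day 5 it was 8.87, 7.40 and 7.78. The mean of the 4 differences was -1.34 ± 0.28 (SD, n = 4), which left 39.4% of the Nons level, and it passed the test across genes (limma, adjusted p = 0.00532). The fitted difference was -1.58 with Smarcc1.6 and -1.11 with Smarcc1.7, a gap of 0.46 that did not pass the test (adjusted p = 1.00).

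**Figure D1:**
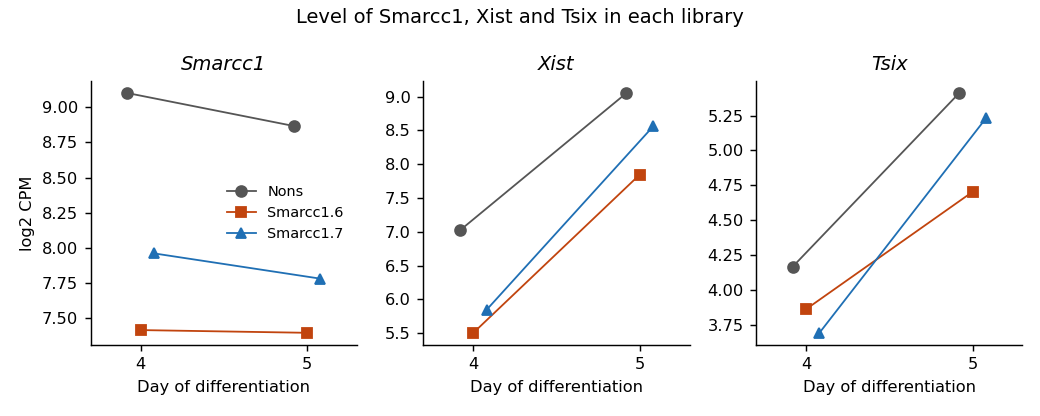
Level of Smarcc1, Xist and Tsix (y axis, log2 CPM, a separate range for each gene) by day of differentiation (x axis) in each of the 6 libraries, with 1 point a library and lines joining the libraries of a hairpin. The Nons libraries sit above both hairpins on the same day for all 3 genes, and Xist is higher on day 5 than on day 4 with every hairpin.

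Depth ran from 13993440 mapped reads with Smarcc1.7 on day 5 to 63548092 with Smarcc1.6 on day 4, so the day 5 Smarcc1.7 library is the least precise of the 6. Between 91.6% and 92.0% of reads lay in genes. The 5 embryonic stem cell markers (Pou5f1, Sox2, Nanog, Zfp42 and Esrrb) summed to 1453 to 1488 CPM in Nons and 1615 to 2442 CPM in the knockdown libraries, so the labelled cell type was borne out by its markers. Of markers of other cell types, the 7 fibroblast genes summed to 9.95 to 28.5 CPM in Nons and 20.3 to 40.8 CPM with the hairpins, with Postn at 0 reads in all 6 libraries. Trophoblast markers summed to 24.1 to 61.6 CPM and 19.9 to 43.7 CPM, primitive endoderm markers to 16.7 to 23.1 CPM and 11.6 to 19.7 CPM, and neural markers to 68.0 to 101 CPM and 78.1 to 109 CPM. The part of these markers in the results was not tested. In bulk libraries a change in the share of cells of a type and a change in RNA per cell cannot be told apart.

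Knockdown changed 976 genes on days 4 and 5, which is 7.31% of the genes tested (limma, adjusted p under 0.05). Of these 548 were higher (4.1%) and 428 lower (3.21%), and every called gene had the same sign in all 4 same-day comparisons. Such agreement favours passing the test, and the 4 comparisons share 2 Nons libraries. Over all genes tested 21.9% were above Nons in all 4 and 23.9% below Nons in all 4. The median size of a called difference was 0.76 on the log2 scale, against 0.16 over all genes tested. At least a doubling was fitted for 228 of the higher genes and at least a halving for 99 of the lower genes. The count rests heavily on the control of day 5, since without that Nons library 132 genes passed. It also rests on the within-day comparison, since a fit without day as a factor called 0 genes, with 907 at an unadjusted p under 0.05.

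On day 4, 2 days after transduction, 310 genes (2.32% of those tested) passed the test, 186 of them higher. On day 5 the count was 860 (6.44%), 487 of them higher. In this fit the spread came only from the difference between the hairpins within a day. It held no estimate of variation between Nons libraries, here, in the change between the days and in every later single-day call. The days have no library in common, so calls of the first day can be read on the next. Of the 186 genes that were higher on day 4, 138 (74.2%) were also above Nons with both hairpins on day 5, against 36.7% of all genes tested. For the 124 that were lower on day 4 the figure was 111 (89.5%), against 42.9% of all genes. The median differences were smaller on the other day, and went from 1.14 to 0.47 for the former and from -1.03 to -0.58 for the latter. Of the genes called on either day, 98 were called on both, which is 31.6% of the day 4 calls and 11.4% of the day 5 calls, and 96 of them had the same direction. The change between the days was tested directly and passed for 0 genes in limma, with 1401 at an unadjusted p under 0.05, and voom also gave 0. The count was 116 without a filter on low values, 44 in a fit of the 6 libraries alone and 3 after thinning to the smallest depth. In the fit used here it was thus not shown that the response grew from day 4 to day 5.

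**Figure D2:**
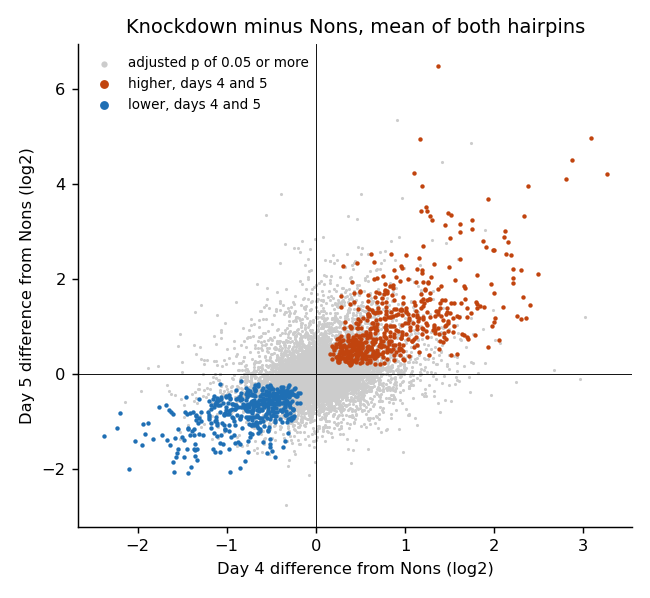
Difference from Nons on day 4 (x axis) and on day 5 (y axis), each the mean of both hairpins on the log2 scale, with 1 point for each of the 13353 genes tested. The 548 genes called higher over both days lie to the upper right and the 428 called lower to the lower left, as the call favours. The largest rises reach further on day 5 than on day 4.

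The hairpins differed in how many genes they moved past the threshold. Smarcc1.6, with the lower Smarcc1 level, changed 984 genes (7.37% of those tested) and Smarcc1.7 changed 35 (0.262%). The difference between the hairpins themselves passed the test for 0 genes in limma, with 457 at an unadjusted p under 0.05, and voom also gave 0. The same Nons libraries serve both hairpins. Among genes called with Smarcc1.7 were Klf4 (2.47 with Smarcc1.6 and 1.76 with Smarcc1.7), Zfp42 (1.59 and 1.10), Emp1 (2.69 and 2.25), Il6st (1.34 and 0.97) and Cldn6 (-1.53 and -1.04), all as fitted log2 differences from Nons. In each of these the Smarcc1.7 difference was the smaller. Smarcc1.7 lost all of its calls when either of its own early libraries was left out.

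The largest rises included Pramel7, Pramel6 and Trim43a, which come in families of similar copies. Pramel7 and Pramel6 belong to the PRAME family, which is active in the inner cell mass and in naive stem cells. Pramel7 stood at 1.52 log2 CPM in Nons, 5.13 with Smarcc1.6 and 4.45 with Smarcc1.7 on day 4, and at -2.37, 2.76 and 0.89 on day 5. On day 5 its Nons value came from 9 reads, and the hairpin values from 206 and 26 reads. The groups overlap across days but not within them, and the rise was 3.73 ± 0.75 (limma SE, adjusted p = 0.0159). Pramel6 rose by 3.45 ± 0.78 (adjusted p = 0.0240), and Trim43a, of a family of preimplantation genes, by 3.69 ± 0.85 (adjusted p = 0.0261). How reads shared with near-identical copies were counted was not stated, so the single-gene values of these families are uncertain. AC122464.1, annotated as a processed pseudogene, rose by 2.50 ± 0.58 (adjusted p = 0.0265) under the same limit.

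Emp1, an epithelial membrane protein gene, gave the smallest adjusted p of all. On day 4 it was at 1.41 log2 CPM in Nons, 3.82 with Smarcc1.6 and 3.31 with Smarcc1.7, and on day 5 at -1.54, 1.44 and 1.05. The rise was 2.47 ± 0.23 (limma SE, adjusted p = 0.00240). Ly6a, the surface antigen Sca-1, rose by 2.57 ± 0.39 (adjusted p = 0.00697), from 1.74 to 4.15 and 3.57 on day 4 and from -0.95 to 2.60 and 1.52 on day 5. Fez1, a kinesin adaptor known from neurons, rose by 2.50 ± 0.38, and its knockdown libraries (3.63 to 5.50 log2 CPM) lay above both Nons libraries (0.84 and 3.56). The other genes among the 10 largest rises were Clec4a1, a C-type lectin receptor (2.67 ± 0.70), Gm7325, the muscle fusion gene myomixer (2.58 ± 0.62), and Gpr133, an adhesion G protein-coupled receptor (2.44 ± 0.55). The last 3 were scarce in Nons on day 5, where Gm7325 had 7 reads and Clec4a1 10.

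Among the falls named, that of Cxcl12, the chemokine ligand of Cxcr4, was the largest. It was at 3.51 log2 CPM in Nons, 0.62 with Smarcc1.6 and 1.62 with Smarcc1.7 on day 4, and at 4.88, 3.30 and 3.85 on day 5. It fell by 1.84 ± 0.30 (limma SE, adjusted p = 0.00853). Cnr1, the cannabinoid receptor gene, fell by 1.82 ± 0.29, and its knockdown libraries (0.35 to 2.17) all lay below its Nons libraries (2.29 and 3.72). Sema6a, a transmembrane semaphorin, fell by 1.59 ± 0.24, and Dclk1, a microtubule-associated kinase, by 1.47 ± 0.30. Thsd7a (-1.56), Gbp3 (-1.52), Heph (-1.52), Setbp1 (-1.50), Fam171b (-1.46) and Tmem47 (-1.46) made up the rest of the 10 named. All 10 were lower in the undifferentiated Day0 library than in the Nons library of either day, and in Nons all 10 were higher on day 5 than on day 4. Heph came nearest, at 2.24 log2 CPM in Day0 and 2.50 in Nons on day 4. The 10 were chosen as falls from these same Nons libraries, which favours high Nons values, so no result is drawn from this. All lower genes are read below against the Nons library of day 6.

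Genes of naive pluripotency made up the group with the most calls. Of 15 genes tested, 9 rose and 0 fell, and the median of the 15 was 1.13, against -0.01 over all genes. This compares with 4.1% of all genes called higher. In 13 of the 15 all 4 differences were above 0, as in 21.9% of all genes. Klf4, a transcription factor of the naive network, was at 3.76 log2 CPM in Nons, 6.29 with Smarcc1.6 and 5.67 with Smarcc1.7 on day 4, and at 2.30, 4.71 and 3.91 on day 5. All 4 knockdown libraries lay above both Nons libraries, and the rise was 2.11 ± 0.29 (limma SE, adjusted p = 0.00532), or 4.33-fold.

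Nanog, which sustains self-renewal, was at 6.43, 8.79 and 8.18 on day 4 and at 6.80, 7.78 and 7.24 on day 5 in the same order, and rose by 1.39 ± 0.26 (adjusted p = 0.0123). Its difference from Nons was 0.44 with Smarcc1.7 on day 5 and 2.37 with Smarcc1.6 on day 4, a wide range. Prdm14, a repressor of the FGF pathway and of DNA methyltransferases, rose by 1.51 ± 0.29, and Nr5a2, a nuclear receptor, by 1.48 ± 0.39. Zfp42, the marker gene also called Rex1, rose by 1.34 ± 0.20, with single differences from 1.00 to 1.64. Tfcp2l1 (1.28), Esrrb (1.14), Tcl1 (1.13) and Klf2 (1.04) also passed. Values for those that did not were 0.98 for Nr0b1, 0.84 for Tdh, 0.65 for Dppa3, 0.56 for Pecam1, 0.50 for Tbx3 and 0.09 for Klf5. On day 4 alone 4 of the 15 were called, and on day 5 alone 5, all of them higher.

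**Figure D3:**
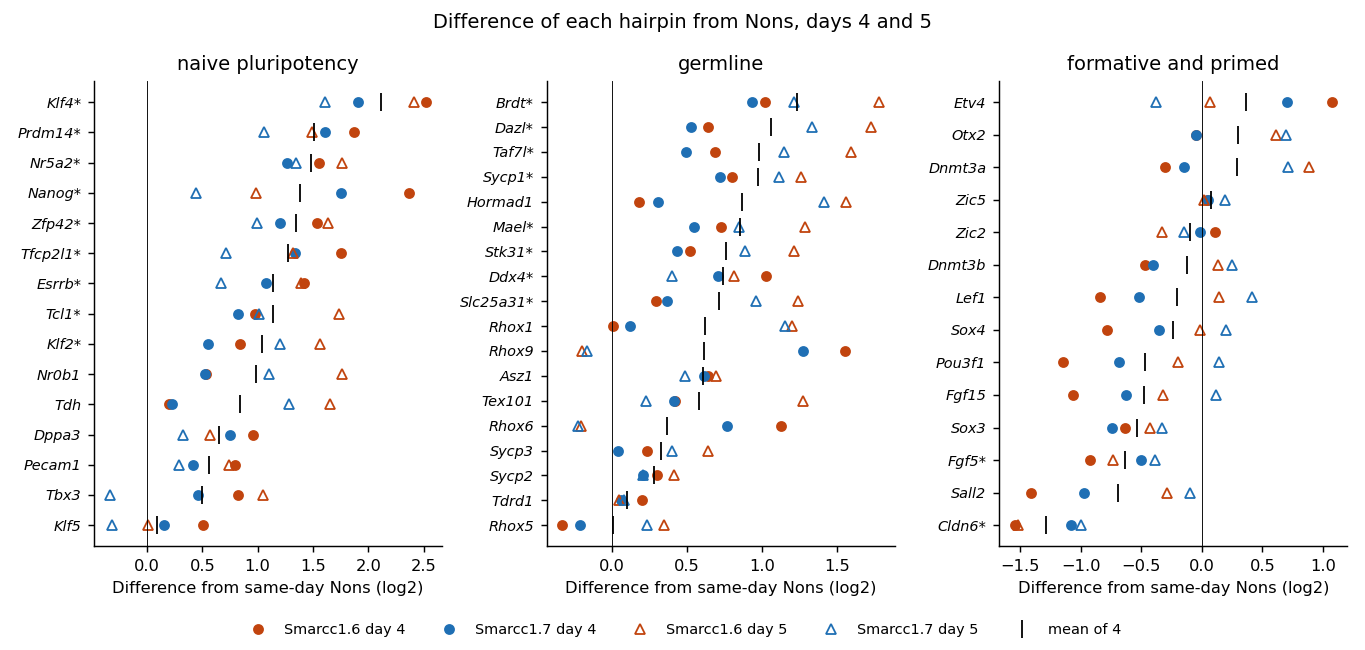
Differences from same-day Nons (x axis, log2) of each gene in 3 lists, with filled circles for day 4, open triangles for day 5, red for Smarcc1.6, blue for Smarcc1.7 and a black tick for the mean of the 4. An asterisk marks an adjusted p under 0.05 over both days. Naive genes lie almost wholly to the right of 0 on both days, germline genes lie further right on day 5 for most members, and several formative genes lie left of 0 on day 4 and near or right of it on day 5.

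The core pluripotency genes had 1 call in each direction. Of 11 tested, Dppa4 (0.72) rose and Lin28a (-0.40) fell, and the median was -0.03. The share called was 18.2%, against 7.31% of all genes. At an unadjusted p under 0.05 in limma were 54.5% of the list and 23.6% of all genes. Pou5f1, which encodes Oct4, was between 9.94 and 10.3 log2 CPM in all 6 libraries, with a difference of 0.12 ± 0.12 (limma SE, adjusted p = 0.572). Sox2 differed by 0.33 ± 0.12 (adjusted p = 0.111). The genes of the formative and primed states, which follow the naive state, had a median of -0.22, and 2 of 14 fell. These were 14.3% of the list, against 3.21% of all genes called lower. On day 4 alone 3 were called, all lower (Cldn6, Sall2 and Pou3f1), with a list median of -0.63. On day 5 alone Cldn6 was called lower and Dnmt3a (0.80) and Otx2 (0.65) higher, with a median of -0.07. Cldn6, a claudin of early epithelium, was at 4.08 log2 CPM in Nons, 2.534 with Smarcc1.6 and 2.999 with Smarcc1.7 on day 4, and at 7.07, 5.55 and 6.08 on day 5. It fell by 1.29 ± 0.18 (adjusted p = 0.00585). Fgf5, a marker of the primed epiblast, fell by 0.64 ± 0.13 (adjusted p = 0.0149). Over both days Otx2 (0.30), Dnmt3a (0.29) and Dnmt3b (-0.12) did not pass.

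The genes called on days 4 and 5 were also read in a pair of libraries whose levels do not enter the early differences, Day0 and the Nons library of day 6. Day0 was in no fit, whereas Nons on day 6 was one of the libraries behind the estimate of the spread. Nons cells were transduced on day 2 and selected from day 3, and neither step is listed for Day0. In this pair differentiation thus cannot be told apart from virus and puromycin. Of the 548 higher genes, 269 (49.1%) were at least 2-fold higher in Day0 than in Nons on day 6, against 13.4% of all genes tested, and 60 (10.9%) at least 2-fold lower, against 19.5%. Of the 428 lower genes, 3 (0.701%) were at least 2-fold higher in Day0 and 285 (66.6%) at least 2-fold lower. The median of Day0 minus Nons on day 6 was 0.96 for the higher genes, -1.80 for the lower genes and -0.13 for all. Genes that were higher with the hairpins were thus more often higher in undifferentiated cells, and genes that were lower with them more often higher in differentiated Nons cells, than genes at large. This is a reading of 1 library against 1 library and carries no test. It does not hold for every gene, since Trim43a had 4 reads in Day0.

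Germline genes, many of which are silenced by DNA methylation in somatic cells, gave 8 rises and 0 falls among 18 tested, with a median of 0.67. In 15 of the 18 all 4 differences were above 0, against 21.9% of all genes, and the share of all genes called higher was 4.1%. Dazl, an RNA-binding protein of germ cells, was at 8.03 log2 CPM in Nons, 8.67 with Smarcc1.6 and 8.56 with Smarcc1.7 on day 4, and at 4.68, 6.41 and 6.02 on day 5. It was lower on day 5 than on day 4 in every group, and with the hairpins it rose relative to Nons by 1.06 ± 0.27 (limma SE, adjusted p = 0.0364). Brdt, a testis bromodomain gene, rose by 1.24 ± 0.22 (adjusted p = 0.0109), Taf7l by 0.98 ± 0.25, and Sycp1, of the synaptonemal complex, by 0.97 ± 0.24. Mael (0.85), Stk31 (0.76), Ddx4 (0.74) and Slc25a31 (0.71) passed too. On day 4 alone 3 of the 18 were called and on day 5 alone 8. Rhox9 and Rhox6, X-linked homeobox genes in a cluster of similar copies, were called higher on day 4 alone, and their differences over both days were 0.62 and 0.37 and did not pass.

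Of the LIF pathway genes tested 12.5% were called, of the Nodal pathway 25% and of the FGF pathway 14.3%, against 7.31% of all genes. In the LIF pathway, which sustains naive mESC, 1 of 8 genes was called. All 8 had fitted differences above 0, with a median of 0.26, and 5 of them were at an unadjusted p under 0.05, against 23.6% of all genes. This was Il6st, the gp130 receptor subunit, at 5.78 log2 CPM in Nons, 6.89 with Smarcc1.6 and 6.59 with Smarcc1.7 on day 4 and at 4.64, 6.21 and 5.77 on day 5. It rose by 1.15 ± 0.16 (limma SE, adjusted p = 0.00550), while Lifr differed by 0.42 and Stat3 by 0.08 without passing. In the Nodal pathway the ligand Nodal rose by 0.57, whereas its target and antagonist Lefty1 (-0.46) and its transcription factor Foxh1 (-0.52) fell, so 3 of 12 were called in opposite directions. In this list 7 genes were below Nons in all 4 comparisons, against 23.9% of all genes, and 5 were at an unadjusted p under 0.05. In the FGF pathway Fgf4, the ligand of stem cells, rose by 0.70, Dusp4, a phosphatase induced by ERK, fell by 0.61, and 12 of 14 genes did not pass.

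Cyp26a1, which degrades retinoic acid, was at 1.02 log2 CPM in Nons and 2.64 and 2.56 with the hairpins on day 4, and at 0.191, 1.602 and 1.238 on day 5. It rose by 1.40 ± 0.30 (limma SE, adjusted p = 0.0205), and the receptor gene Rarg rose by 0.68, so 2 of 10 retinoic acid genes were called. Cyp26a1 lost its call with log2(CPM + 1) (adjusted p = 0.0589), with voom weights (0.0771), without trend (0.0518), and with either Nons library or either Smarcc1.6 library left out in limma. The Wnt co-receptor Lrp5 fell by 0.79, as 1 of 13 Wnt genes, and the Notch ligand Dll3 fell by 1.00, as 1 of 11 Notch genes. Of 12 genes listed as G1 cyclins and CDK inhibitors, with the kinase gene Cdk6 among them, Ccnd3 rose by 0.59 and Cdk6 fell by 0.98. The call of Cdk6 (limma, adjusted p = 0.0497) was lost under 5 of the 8 processing alternatives. Of 13 BMP genes 0 passed in limma, with 3 at an unadjusted p under 0.05 and 1 passing with voom weights. Of 9 insulin and IGF genes 0 passed in limma or voom, with 3 at an unadjusted p under 0.05. With 7.31% of all genes called, lists this short may hold 0 calls at that share.

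Lineage genes were sparse at this stage, and each list held only 1 or 2 calls. As shares of the genes tested these were 18.2% for streak and mesoderm, 11.1% for endoderm and 12.5% for neuroectoderm. For trophoblast and epithelial genes the share was 12.5% and for fibroblast genes 25%, against 7.31% of all genes. In the primitive streak and mesoderm list 11 of 20 genes were tested. Fgf8 was at 2.49 log2 CPM in Nons, 1.22 with Smarcc1.6 and 1.62 with Smarcc1.7 on day 4, and at 3.74, 2.11 and 2.48 on day 5. It fell by 1.26 ± 0.21 (limma SE, adjusted p = 0.00971), and Wnt3, the signal that induces the streak, fell by 1.17 ± 0.27 (adjusted p = 0.0261). T, the mesoderm factor Brachyury, differed by -0.54 without passing (adjusted p = 0.561) and lay slightly above Nons on day 4 (0.17). Of 9 endoderm genes only Hnf4a was called. Its Nons library of day 5 had 3 reads, which makes the fitted 3.05 depend on that value, so the ratios of that day were 36.8 with Smarcc1.6 (95% exact interval 12.1 to 182) and 25.4 with Smarcc1.7 (7.68 to 132), for counting error only. On day 4 it was at 0.84 in Nons and at 2.32 and 1.71 with the hairpins. Hnf4a lost its call under 4 of the 7 processing alternatives that kept it.

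Tubb3, a neuronal tubulin, rose by 0.95 as 1 of 8 neuroectoderm genes, while Pax6 (-0.13) and Nes (-0.75) did not pass. Tead4, a trophectoderm factor, rose by 0.78 as 1 of 8 trophoblast and epithelial genes, whereas the keratins Krt8 (-0.45), Krt18 (-0.16) and Krt7 (-0.46) did not pass. Of 4 fibroblast genes tested Col1a2, a collagen chain, rose by 2.34 ± 0.29 (limma SE, adjusted p = 0.00532). It was at 1.43 log2 CPM in Nons, 3.33 with Smarcc1.6 and 3.30 with Smarcc1.7 on day 4 and at 0.89, 4.14 and 3.23 on day 5, with no overlap. Thy1, a surface glycoprotein also found outside fibroblasts, was above Nons in all 4 comparisons, at 4.12 log2 CPM in Nons, 4.43 with Smarcc1.6 and 4.51 with Smarcc1.7 on day 4 and at 2.10, 3.75 and 2.99 on day 5. It differed by 0.81 over both days without passing (adjusted p = 0.114) and was called higher on day 5 alone (1.27, adjusted p = 0.0307). Col1a1 differed by 0.25 and Dcn by -0.69 without passing, and Col3a1 was at most 0.49 CPM in any of the 6 libraries.

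**Figure D4:**
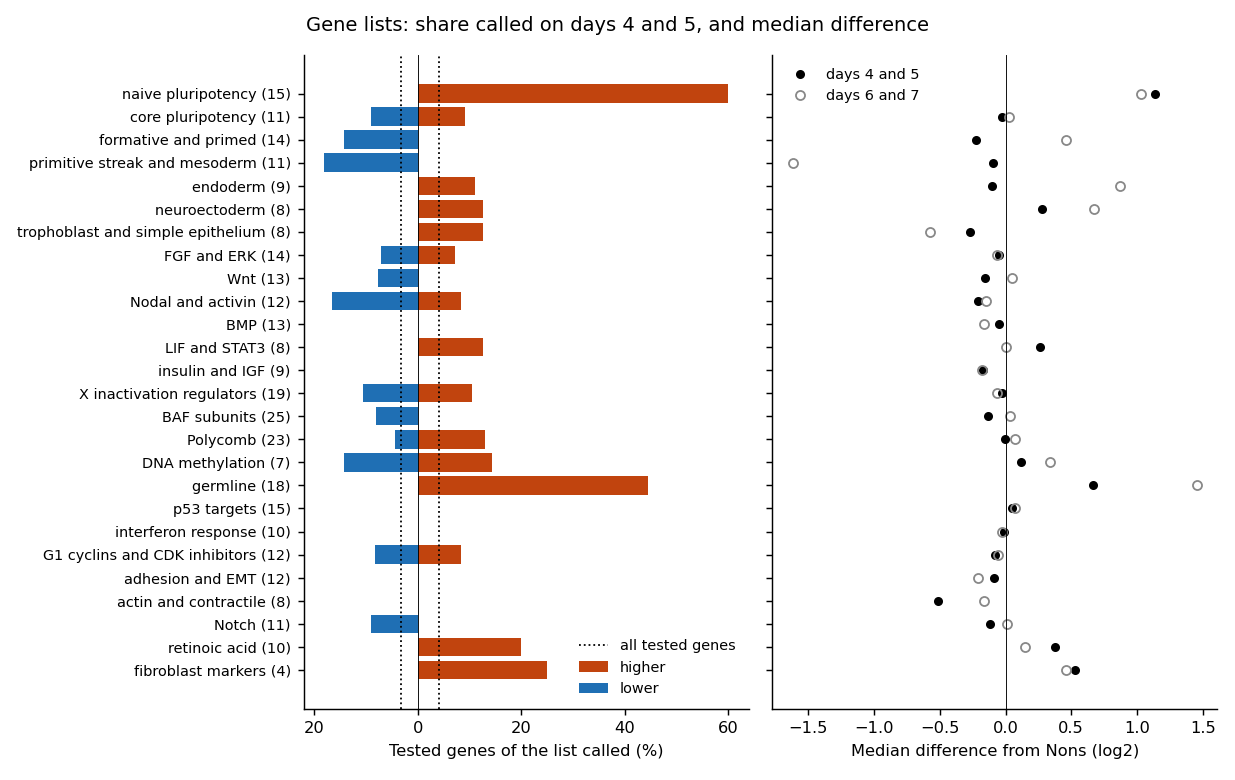
Left, percent of the tested genes of each list (number in brackets) called higher (red, to the right) or lower (blue, to the left) on days 4 and 5, with dotted lines at the shares over all genes (4.1% and 3.21%). Right, median difference from Nons (x axis, log2) on days 4 and 5 (filled) and on days 6 and 7 (open). The naive and germline lists stand out on the right of both panels, and the streak and mesoderm median is -0.10 early and -1.62 late.

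Of 25 BAF subunit genes tested, counted without Smarcc1, Smarcd1 (-0.45) and Bcl7c (-0.50) fell and 0 rose, with a median of -0.13 and 10 genes below Nons in all 4 comparisons. The share called was 8.0%, near the 7.31% of all genes, and 23.9% of all genes were below Nons in all 4. Smarca4, the ATPase Brg1, stood between 8.19 and 8.41 log2 CPM and differed by -0.16 ± 0.09 (limma SE, adjusted p = 0.331). The close paralog Smarcc2 differed by -0.00. Of 23 Polycomb genes, the PRC2 genes Mtf2 (0.47) and Suz12 (0.39) and the PRC1 gene Rybp (0.37) rose and Cbx2 (-0.45) fell. These were 17.4% of the list, against 7.31% of all genes. Tet2, an enzyme that oxidises methylcytosine, was at 5.18 log2 CPM in Nons, 6.72 with Smarcc1.6 and 6.29 with Smarcc1.7 on day 4, and at 3.58, 5.16 and 4.45 on day 5. It rose by 1.28 ± 0.21 (adjusted p = 0.00853), and Tdg, a glycosylase that acts after it, fell by 0.45.

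Xist (chrX:103460375-103483217, - strand) was lower with both hairpins on both days. On day 4 it was at 7.02 log2 CPM in Nons, 5.51 with Smarcc1.6 and 5.85 with Smarcc1.7, and on day 5 at 9.05, 7.85 and 8.56. It was higher on day 5 than on day 4 with every hairpin, so the groups overlap across days and not within them. The mean difference was -1.10 ± 0.43 (SD, n = 4), or 46.7% of Nons, and passed in limma (adjusted p = 0.0271). The call was lost with either Nons library left out (adjusted p = 0.198 and 0.0933) and with either Smarcc1.6 library left out, and the difference was -0.49 with Smarcc1.7 on day 5. Tsix, the antisense transcript across Xist, differed by -0.42 without passing (adjusted p = 0.357). The strand setting of the counting was not stated, so reads of Xist and Tsix cannot be told apart where they overlap.

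Of 19 regulators of XCI tested, Cdyl (0.56) and Jarid2 (0.40), which are linked to Polycomb and repressive histone methylation, rose. Satb1, a genome organiser, fell by 1.19 ± 0.24 (limma SE, adjusted p = 0.0168), and Ciz1, a protein of the Xist domain, by 0.67. Spen (-0.14), Rlim (-0.20), Hnrnpk (-0.02) and Smchd1 (-0.14) did not pass. The share called was 21.1%, in both directions, against 7.31% of all genes, and the list median was -0.02. At an unadjusted p under 0.05 were 31.6% of the list and 23.6% of all genes.

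The X chromosome held calls in both directions. Of 526 X-linked genes, 39 (7.41%) were higher and 34 (6.46%) lower, against 3.97% and 3.07% of 12814 autosomal genes, and single autosomes ranged from 2.40% to 5.91% and from 1.98% to 4.54%. On day 4 alone 8 X-linked genes were called higher and 12 lower, against 178 and 112 autosomal genes. On day 5 alone the counts were 41 and 19, against 446 and 354. The shift of the X chromosome, taken as the X-linked median difference less the autosomal one, was -0.01 with Smarcc1.6 and 0.03 with Smarcc1.7 on day 4, and 0.10 and 0.09 on day 5. Its mean was 0.05 ± 0.05 (SD, n = 4) and did not pass (exact permutation test, two-sided, p = 0.222, over 9 arrangements). For Smarcc1 and for Xist the same exact test gave p = 0.111, the smallest it can give here and above 0.05. Adjusted over these 3 tests the values were 0.167 for Smarcc1 and Xist and 0.222 for the X chromosome in the same exact permutation test. Without a filter on low values the shift was 0.18.

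The largest X-linked rise was that of 4930519F16Rik (chrX:103182971-103311782), annotated as a transcribed unitary pseudogene, at 1.68 ± 0.46 (limma SE, adjusted p = 0.0476). Its call was lost at a minimum of 2 log2 CPM, without trend, and with any early library but the day 4 Nons library left out, and its day 4 value of 0.84 was below that of day 5, 2.53. AU015836 was at 5.38 log2 CPM in Nons, 7.65 with Smarcc1.6 and 7.10 with Smarcc1.7 on day 4, and at 6.47, 7.80 and 7.34 on day 5. It rose by 1.55 ± 0.22 (adjusted p = 0.00585), with no overlap between the groups. Wdr45, an autophagy gene, rose by 1.45 ± 0.23 (adjusted p = 0.00853). Heph, a ferroxidase, fell by 1.52 ± 0.30. Tmem47 fell by 1.46 ± 0.24. Tspan7, a tetraspanin membrane protein, fell by 1.29 ± 0.23 (adjusted p = 0.0106), from 3.68 to 1.91 and 2.68 on day 4 and from 5.09 to 3.66 and 4.12 on day 5.

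Lists of genes that answer damage, virus or tension held no calls over both days. Over all genes tested 7.31% were called and 23.6% were at an unadjusted p under 0.05, so lists this short may hold 0 calls at that share. Of 15 p53 targets 0 were called in limma or voom, with 4 at an unadjusted p under 0.05, and Cdkn1a differed by -0.05 ± 0.09 (adjusted p = 0.814). Of 10 interferon response genes 0 were called in limma or voom, with 2 at an unadjusted p under 0.05, and Isg15 was at -0.68 and Oas1a at 1.20. Of 12 adhesion genes 0 were called in limma and 1 with voom weights, with 2 at an unadjusted p under 0.05. The 8 actin and contractile genes all had fitted differences below 0, with a median of -0.51, 5 of them below Nons in all 4 comparisons, and 0 calls in limma or voom over both days, with 3 at an unadjusted p under 0.05. On day 5 alone 6 of the 8 were called lower, against 373 of the 13353 genes tested. Tagln, the smooth muscle gene transgelin, was at 0.48 log2 CPM in Nons and at -0.06 and 0.34 with the hairpins on day 4. On day 5 it was at 4.85 in Nons and at 1.68 and 2.53. Its day 5 difference was -2.75 (limma, adjusted p = 0.00625), and the change between the days did not pass for any gene in that fit.

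The libraries of days 6 and 7, which share none with days 4 and 5, were used to see what became of the first response. There 1422 genes (10.6% of those tested) were called in the same fit. Of the 548 genes higher early, 306 (55.8%) were above Nons in all 4 late comparisons, against 21.9% of all genes, and 167 were called higher late, which is 30.5% of the early list and 17.6% of the late one. Of the 428 genes lower early, 193 (45.1%) were below Nons in all 4, against 20.9%, and 62 were called lower late, which is 14.5% of the early and 13.1% of the late list. The median difference was 0.85 early and 0.33 late for the former, and -0.70 and -0.19 for the latter. The early values are those the genes were chosen on, which the late ones are not.

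The change itself passed for 245 genes (1.83% of those tested). Among the early calls it passed for 58 higher genes, of which 53 had a lower value late and 49 were then below Nons. It also passed for 29 lower genes, of which 29 had a higher value late and 26 were then above Nons. The early value is part of this change and these genes were chosen on it, which favours a change toward Nons. Emp1 differed by 2.47 early and -0.85 late, Cyp26a1 by 1.40 and -2.53, Il6st by 1.15 and -0.03, and Ly6a by 2.57 and 0.12. Each of these changes passed. Nanog (1.39 and 0.10) and Klf4 (2.11 and 0.68) gave a smaller value late, but their changes did not pass, while Tcl1 (1.13 and 2.52) and Pramel7 (3.73 and 4.23) were called in both periods. Other genes differed more from Nons late than early. T, at -0.54 early, was at -4.46 late, and Neurog3, a neurogenic factor at 1.85 early without passing, was at 6.24 late. Dnajc5g was at 0.81 and 4.52 and Gm17657 at 0.99 and 4.46. Smarcc1 itself was at -1.34 early and -0.77 late, a change of 0.57 that did not pass (adjusted p = 0.230).

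**Figure D5:**
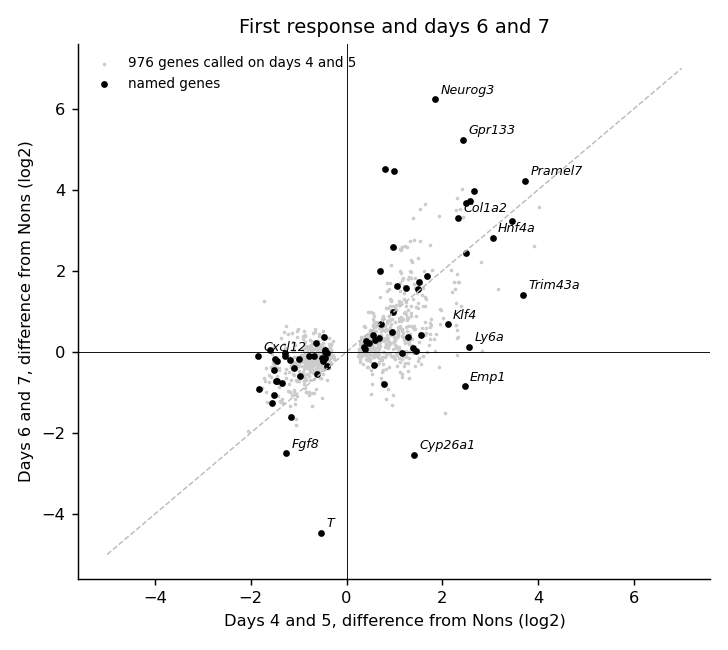
Difference from Nons on days 4 and 5 (x axis) and on days 6 and 7 (y axis), on the log2 scale, for the 976 genes called early (grey) and the named genes (black); the dashed line marks equal values. Of the 976 genes, 644 lie on the same side of Nons late but nearer to it. The 976 were chosen on their early values, which favours late values nearer to Nons. Emp1 and Cyp26a1 cross 0, and T, Neurog3 and Gpr133 lie further from 0 late than early.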

How the data were processed

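RNA-seq was analysed for 6 of 13 libraries, grouped by hairpin and day from the sample titles. The study made paired-end TruSeq libraries, aligned reads with tophat or hisat2 to mm10 with strain-specific positions masked, and counted reads per gene in Seqmonk. The submitters' processing notes list bcl2fastq and TopHat2 2.0.12. The strand setting and annotation release are not given in the sources used here. The authors deposited log2 CPM values, reads per gene scaled to a common number of mapped reads, both alleles together, with 0 reads written as 0.9 reads, so differences of scarce genes depend on that value. Reads and depths were recovered from the steps of low values, of which 100% were whole (tolerance 0.01 reads). A gene with 3 reads sat between -4.40 and -2.22 log2 CPM in the 6 libraries, and such floors cover counting error only.

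Genes with a mean of at least 0 log2 CPM were fitted with limma 3.58.1 in R 4.3.3 (lmFit, eBayes with trend, Benjamini-Hochberg over all genes, threshold 0.05). The model held all 12 libraries of days 4 to 7, with day as a factor and knockdown terms for days 4 and 5 and for days 6 and 7. The late libraries add only to the estimate of the spread. Other fits had a term for each hairpin or each day. No replicates exist within a hairpin and day. Single values were tested with an exact permutation test over 9 arrangements, taking 1 of the 3 libraries of each day as Nons, whose smallest p is 0.111. Alternatives were no filter, a minimum of 2, log2(CPM + 1), centring on the autosomal median, voom weights, thinning to the smallest depth, no trend, the 6 libraries alone, no day factor, 1 hairpin, 1 day and leaving out each library. The fit was also run on simulated counts, with independent libraries and no effect of day or culture. That run does not bear on cultures shared between libraries. Python 3.11.15 was used for summaries.

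Lists and tests were chosen with earlier results of these data known. Named were Smarcc1, Xist and Tsix, up to 4 called genes of each list, the 10 largest rises and falls with mean of at least 1 log2 CPM and 1 sign in all 4 comparisons, the 3 largest X-linked ones, and the 3 largest changes late. List genes given beside a list's count, with the smaller value of each list, and those given for Smarcc1.7 and for the actin list were picked after their values were seen. A few genes are not reported here and were left out of the lists and of the naming. Gene types and sites are from GENCODE M21, hairpin sequences from the study's oligonucleotide list.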

Additional observations from a re-analysis of the deposited data

Results flagged for a closer look

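Of 33 results whose 4 early differences were examined for a value standing apart, 1 was found, and chance alone gives about 1 in 20. This was Setbp1 with Smarcc1.6 on day 4, which was -2.61 from Nons while its other differences lay closer together.

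The difference from Nons changed between days 4 and 5 and days 6 and 7, by a limma test of the change itself, for 16 of the 73 named genes. Over all genes tested the share was 1.83%. Values are late minus early on the log2 scale. The difference was lower late for Cyp26a1 (-3.94), T (-3.93), Emp1 (-3.32), Ly6a (-2.44), Tead4 (-1.57), Il6st (-1.19) and Nodal (-0.90). It was higher late for Neurog3 (4.38), Dnajc5g (3.71), Gm17657 (3.47), Sema6a (1.65), Taf7l (1.598), Fgf4 (1.30), Cldn6 (1.18), Fgf5 (0.86) and Lefty1 (0.83). The 3 largest changes of each sign were named for being so. Of the 73 genes, 68 were called on days 4 and 5, and the early value is part of this change. The count of 16 thus follows in part from the naming.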

How the results depend on the processing

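No paired analysis was possible because the only number the groups share is the day, which the fits already hold as a factor. Of 146 recomputed values of the 11 main results, 106 kept their side or stayed within 1.5 times. The early count of 976 was 534 without trend, 0 without day as a factor, 193 with Smarcc1.6 only, 1 with Smarcc1.7 only, 310 on day 4 only, and 132 to 864 with a library left out. Smarcc1.6 calls (984) were 507 without trend and 159 to 781 with a library left out. Smarcc1.7 calls (35) were 316 without a filter, 88 with log2(CPM + 1), 69 when centred, 0 without trend, and 0 to 124 with a library left out. Day 4 calls (310) were 771 without a filter, 570 with voom weights, 0 without trend, 622 in the 6 libraries alone, and 10 to 377 with a library left out. Day 5 calls (860) were 358 without trend, 1531 in the 6 libraries alone, and 12 to 867 with a library left out. The day 5 minus day 4 count of 0 was 116 without a filter, 3 after thinning, 44 in the 6 libraries alone, and 0 to 11 with a library left out. Late minus early calls (245) were 79 without trend and 24 to 514 with a library left out. The hairpin difference stayed at 0 genes in every fit that could be made. Of the 68 named genes called, 30 were called under all 8 processing alternatives, 6 more had no value at a minimum of 2 and were called under the other 7, and 6 (Smarcc1, Klf4, Emp1, Col1a2, Cldn6 and AU015836) with each early library left out in turn. T, which was not called, was at 0.17 on day 4 only, and from -1.24 to 0.17 with a library left out, the latter without the day 5 Nons library. The causes were not tested, beyond fewer samples in the fits that leave some out. Depth limits the day 5 Smarcc1.7 library most.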

Other observations

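Among the 35 genes called with Smarcc1.7 were genes of membranes, secretion and growth factors that no list held. They were chosen after their values were seen. Anxa2, a membrane-binding annexin, was at 5.15 log2 CPM in Nons, 6.35 with Smarcc1.6 and 6.22 with Smarcc1.7 on day 4, and at 4.09, 5.44 and 5.23 on day 5. It rose by 1.19 ± 0.13 (limma SE, adjusted p = 0.00532 for both hairpins together) and by 1.28 with Smarcc1.6 and 1.10 with Smarcc1.7. Fgf17, a ligand of the Fgf8 subfamily, rose by 2.30 ± 0.28, whereas Fgf8 fell by 1.26. Msln, the surface protein mesothelin, rose by 2.31 ± 0.29, S100a6, a calcium-binding protein, by 1.93 ± 0.27, Rab27a, a small GTPase of vesicle secretion, by 1.95 ± 0.27, and Nid1, a basement membrane protein, by 1.17 ± 0.14. On days 6 and 7 their differences were -0.34 for Anxa2, 0.34 for Fgf17, 0.54 for Msln, -0.36 for S100a6 and 0.70 for Rab27a, none of which passed, and -0.62 for Nid1, which did.

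Dmrt1, a factor of germ cells and testis, was at 4.64, 6.01 and 5.68 on day 4 and at 5.02, 6.69 and 6.23 on day 5 in the same order, with no overlap between the groups. It rose by 1.32 ± 0.17 (limma SE, adjusted p = 0.00532) and its difference from Nons was 2.74 on days 6 and 7. Among the falls were Chd7, another ATP-dependent chromatin remodeller, by 0.89 ± 0.12, Herc6, a ubiquitin ligase, by 1.41 ± 0.23, and Mogat2, an enzyme of triglyceride synthesis, by 1.21 ± 0.14. Chd7 was at 6.71 in Nons, 5.72 with Smarcc1.6 and 5.99 with Smarcc1.7 on day 4, and at 7.06, 5.96 and 6.31 on day 5. All 4 knockdown libraries lay below both Nons libraries. With Smarcc1.7 alone Chd7, Herc6 and Msln passed narrowly, each at an adjusted p of 0.0487 in limma.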
